A study of Mus musculus with 6 samples.

Results

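The BCL2 family decides whether a cell keeps or loses the integrity of its mitochondrial outer membrane, and so whether it survives or dies by apoptosis. The 10 genes described here are Bcl2, Bcl2l1, Mcl1, Bcl2a1a and Bcl2a1d, which encode pro-survival proteins, Bcl2a1c, a shorter copy grouped with them by sequence, Bax and Bak1, which encode the pore-forming effectors, and Bcl2l11 and Bid, which encode BH3-only proteins. They were selected by symbol from the 23235 genes of the authors' deposited table, with their levels in the LPS+Dex and LPS groups already known. All 10 have a row, and all 10 have status OK, so none was left without a test. Because the same contrast guided their choice, their fold changes and the authors' calls on them are given as a description and support nothing beyond it.

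RNA was sequenced from primary macrophages differentiated from mouse bone marrow with L-929 conditioned medium, a source of the growth factor M-CSF. The LPS+Dex group has 3 samples, given 1 µM dexamethasone (Dex, a synthetic glucocorticoid) overnight and then lipopolysaccharide (LPS, a bacterial cell wall component sensed through Tlr4) for 6 h. The LPS group has 3 samples given LPS for 6 h. Every sample of both groups is homozygous for GRdim, a glucocorticoid receptor mutation that impairs dimerization and that all cells of the animal carry. Wild-type and unstimulated cells were not analysed here, so no difference can be tied to the mutation or to LPS alone. The labels give no age or strain, and leave unsaid whether replicates are different mice, different cultures or repeats of one.

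The table holds 1 FPKM value per gene and group (fragments counted per length of transcript and per size of library), with no value per sample, no count and no depth. No spread between samples can therefore be shown. The error given here is the implied standard error (SE), which is the absolute log2 fold change divided by the authors' test statistic, and any spread behind it may be technical. A gene is called where the authors' q is under 0.05. The RNA is bulk, so fewer cells of a kind and less RNA per cell cannot be told apart.

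Pro-survival proteins hold the effectors and the BH3-only proteins in check. BH3-only proteins, released or induced by stress, occupy the pro-survival proteins or activate Bax and Bak1 directly, and the oligomerized effectors then let cytochrome c out of the mitochondria. In macrophages, Tlr4 signalling through NF-kB induces Bcl2a1 and Bcl2l1, and Mcl1 is a short-lived protein on which neutrophils depend. In lymphoid cells, glucocorticoids are known to raise Bcl2l11 and to trigger apoptosis.

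The mouse genome carries several copies of Bcl2a1, the gene of the A1 protein, and how alike they are bears on every value reported for them. Shown first are the opening 90 coding bases of the 3 full-length copies on the GRCm38 assembly, read from GENCODE M21 transcripts, with capitals at the 6 positions where the copies differ. Bcl2a1d lies at chr9:88731630-88731719 on the minus strand, Bcl2a1b at chr9:89199360-89199449 on the plus strand and Bcl2a1a at chr9:88957051-88957140 on the plus strand.
Bcl2a1d: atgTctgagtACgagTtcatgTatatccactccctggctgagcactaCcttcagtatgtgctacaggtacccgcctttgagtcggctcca
Bcl2a1b: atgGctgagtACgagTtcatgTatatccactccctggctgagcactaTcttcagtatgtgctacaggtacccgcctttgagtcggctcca
Bcl2a1a: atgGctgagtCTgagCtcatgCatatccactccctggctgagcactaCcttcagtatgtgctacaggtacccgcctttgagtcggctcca

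Over the whole coding sequence of 516 bases, 12 positions differ among these 3 copies. Bcl2a1d was 98.8% identical to Bcl2a1b and 98.6% identical to Bcl2a1a. Bcl2a1c has a single annotated exon and an annotated coding sequence of 384 bases, shorter than in the other copies, and was 95.8% to 96.9% identical to the others over the 383 bases aligned. The labels give paired reads of 101 cycles, so windows of that length show where one read could not be placed on 1 copy. Of 763 such windows of the Bcl2a1d transcript, 54.0% occurred letter for letter in another Bcl2a1 transcript. The shares were 43.1% for Bcl2a1a and 30.5% for Bcl2a1b. None of the 344 windows of Bcl2a1c was shared. How the authors divided reads that fit several copies is not stated in the labels or the table, so the split of signal between Bcl2a1a, Bcl2a1b and Bcl2a1d is uncertain, and their sum is given beside them.

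**Figure D1:**
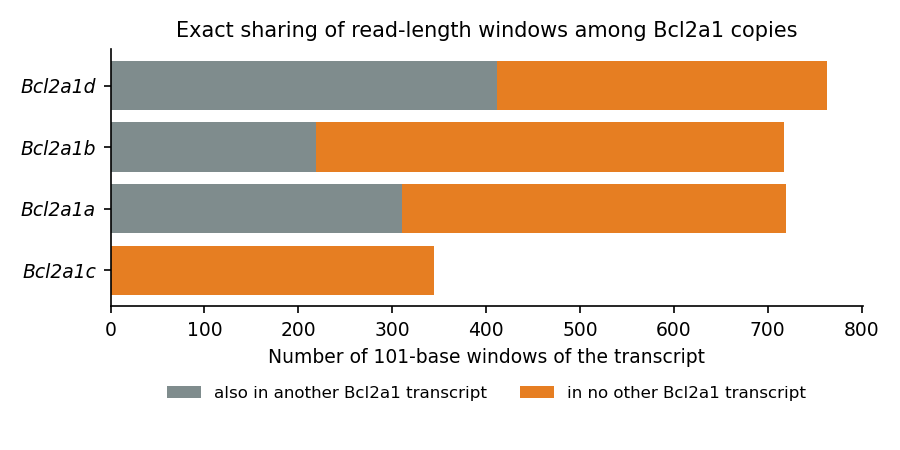
Each bar counts the 101-base windows of 1 Bcl2a1 transcript (x axis, number of windows; GENCODE M21), split into windows also found exactly in another Bcl2a1 transcript and windows found in no other Bcl2a1 transcript. Bcl2a1d shares 412 of its windows, Bcl2a1a 310 and Bcl2a1b 219, and Bcl2a1c shares none.

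The RefSeq promoter windows of GRCm38.p6, which run from 250 bases before to 50 after the RefSeq start, were alike as well. Identity over the aligned bases was 98.8% between Bcl2a1d and Bcl2a1b and 99.2% between Bcl2a1a and Bcl2a1b. GENCODE M21 places the starts of these 3 transcripts farther upstream, so the windows hold transcribed bases too.

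In the authors' deposited table, 5 of the 10 members were called, 1 higher and 4 lower in LPS+Dex. Among all 11755 genes tested, 42.9% were called, 17.7% as higher and 25.2% as lower. The members' median log2 fold change was −0.19, against −0.011 over all genes tested. Nothing is read from these shares, since the contrast guided the choice of members. The called members were the 3 listed Bcl2a1 copies, Bcl2l11 and Bcl2l1, and the effectors, Bid, Mcl1 and Bcl2 were not called. Expression level matters for how small changes read, because abundant genes tended to be lower in LPS+Dex. The median log2 fold change was −0.18 over the 774 tested genes with a mean of at least 100 FPKM, and a trend fitted over all tested genes stood at a median of −0.13 at the members' levels.

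**Figure D2:**
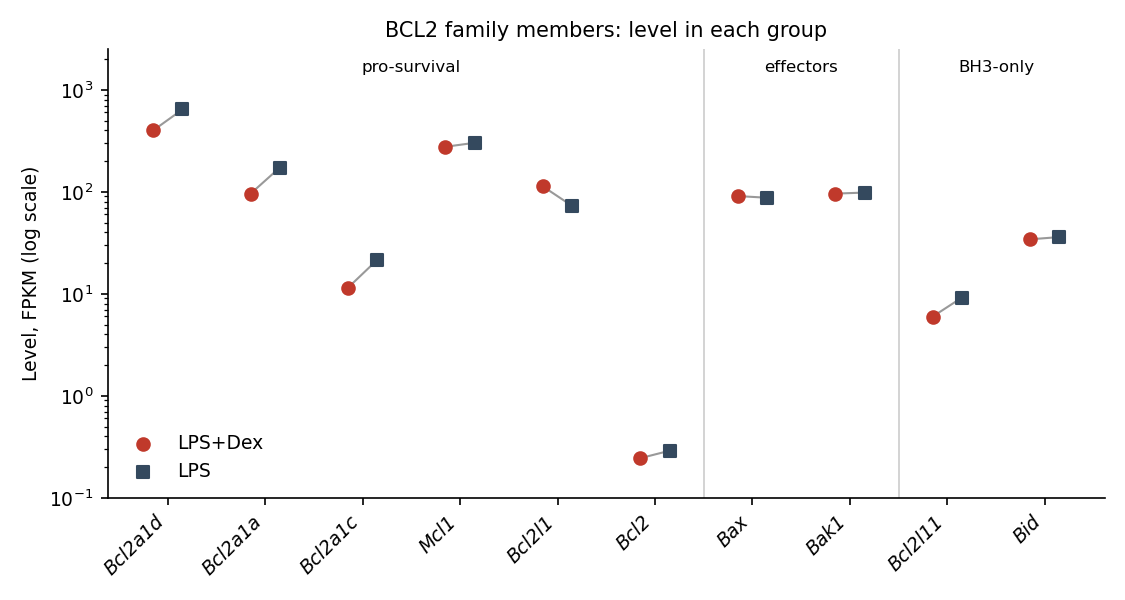
The y axis gives the authors' FPKM value of each member on a log scale, with 1 circle for LPS+Dex and 1 square for LPS, ordered by role. The Bcl2a1 copies and Bcl2l11 lie lower in LPS+Dex, Bcl2l1 lies higher, and Bcl2 is under 0.3 FPKM in both groups.

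Bcl2l1, which encodes the survival protein Bcl-xL, was the one member called higher. Its level in the authors' deposited table was 113 FPKM in LPS+Dex, against 72.7 FPKM in LPS. That is a log2 fold change of 0.63 (implied SE 0.049), or 1.55-fold with a 95% interval of 1.45 to 1.66. Relative to the trend at its expression level the log2 change was 0.77. The gene lies on chromosome 2, 152606404 to 152657418 in mm9, the build named in the submitters' processing notes. It can also be spliced to a short form that promotes death, and a value per gene does not separate the forms. With its higher level Bcl2l1 stood at the third place among the members in LPS+Dex and at the sixth in LPS. The next places in LPS+Dex, held by Bak1, Bcl2a1a and Bax, lay between 90.9 and 96.0 FPKM, and without values per sample their order was not tested.

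The Bcl2a1 copies fell together. A1 is an early-response survival protein of blood cells. Bcl2a1d (chromosome 9, 88618126 to 88626688) had the highest level of all members, with 399 FPKM in LPS+Dex against 642 FPKM in LPS in the authors' deposited table. Its log2 fold change was −0.68 (implied SE 0.049). Bcl2a1a (chromosome 9, 88851758 to 88857254) had 95.8 FPKM in LPS+Dex and 173 FPKM in LPS, a log2 fold change of −0.85 (implied SE 0.049). Bcl2a1c (chromosome 9, 114239253 to 114239696), away from the cluster of the other copies, had 11.5 FPKM in LPS+Dex and 21.6 FPKM in LPS, a log2 fold change of −0.91 (implied SE 0.10). Bcl2a1c is the copy with no exactly shared window, and its direction was the same as that of the copies with shared windows. Reads placed with mismatches were not examined, so reads of the other copies may still enter its value. Bcl2a1b (chromosome 9, 89094111 to 89102676), a copy outside the 10 members, had 284 FPKM in LPS+Dex and 424 FPKM in LPS, a log2 fold change of −0.58 (implied SE 0.048).

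Summed over the 4 copies, Bcl2a1 stood at 791 FPKM in LPS+Dex and 1259.7 FPKM in LPS, a ratio of 0.628. Each value in this sum is scaled by the length of its copy, so the sum is not free of the split between copies. A read counted on each copy it fits would also enter it more than once. Whether that was done is not stated. The split was close in both groups. Bcl2a1d held 50.5% of the sum in LPS+Dex and 50.9% in LPS, and Bcl2a1b held 35.9% in LPS+Dex and 33.6% in LPS. No error can be given for these sums, since the table has no value per sample.

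Markers of the labelled cell type were present. The 8 macrophage markers with a row summed to 3684 FPKM in LPS+Dex and 3421.5 FPKM in LPS in the authors' deposited table, with 3 called higher and 1 lower. Lyz2 was listed at 0 in both groups with status HIDATA, a flag for loci with too many fragments. All 7 markers of T and NK cells and all 5 of B cells were under 1 FPKM in both groups, as were 5 of 6 stromal markers. Neutrophils also express Bcl2a1 and Mcl1. Of 8 neutrophil markers, 4 were called lower (S100a9, Ngp, Ltf and Camp) and 1 higher (S100a8). Under 1 FPKM in both groups were 4 of the 8, Mpo and Elane among them. The 8 summed to 63.2 FPKM in LPS+Dex and 57.1 FPKM in LPS, most of it S100a8 and S100a9. S100a8 had 40.9 FPKM in LPS+Dex and 27.5 FPKM in LPS, whereas S100a9 had 18.8 FPKM in LPS+Dex and 24.0 FPKM in LPS. Of 8 dendritic cell markers, 3 were called lower and 1 higher, and their sum, most of it Itgax, was 22.6 FPKM in LPS+Dex and 30.8 FPKM in LPS. Ccr7 had 0.589 FPKM in LPS+Dex and 2.63 FPKM in LPS (log2 −2.16, implied SE 0.16), and Xcr1 had 0.114 FPKM in LPS+Dex and 0.529 FPKM in LPS (log2 −2.21, implied SE 0.23). Clec10a went the other way, with 1.91 FPKM in LPS+Dex and 0.890 FPKM in LPS (log2 1.10, implied SE 0.26). The part of either in the Bcl2a1 values was not tested.

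Mcl1, which encodes a short-lived survival protein, was not called. The gene (chromosome 3, 95462643 to 95467101) had the second-highest level in both groups, with 277 FPKM in LPS+Dex and 302.5 FPKM in LPS. Its log2 fold change was −0.13 with a 95% interval of −0.25 to −0.0082 (q = 0.0783 in the authors' deposited table). Relative to the trend of genes at its level the change was 0.046, so its direction depends on that scaling. Bcl2, the founding member and a main survival protein of lymphocytes (chromosome 1, 108434756 to 108610867), was scarce, with 0.245 FPKM in LPS+Dex and 0.290 FPKM in LPS. Its interval was the widest of the members, a log2 fold change from −0.76 to 0.27 (q = 0.497 in the authors' deposited table), which spans 0.592-fold to 1.21-fold.

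Set side by side, the 4 Bcl2a1 copies, Mcl1, Bcl2l1 and Bcl2 summed to 1181 FPKM in LPS+Dex and 1635 FPKM in LPS. The Bcl2a1 copies made up 67.0% of this sum in LPS+Dex and 77.0% in LPS. Mcl1 made up 23.4% in LPS+Dex and 18.5% in LPS, and Bcl2l1 made up 9.56% in LPS+Dex and 4.45% in LPS. Without Bcl2a1, the sum of Mcl1, Bcl2l1 and Bcl2 was 389.7 FPKM in LPS+Dex and 376 FPKM in LPS. Bcl2a1 transcripts were 7.01 times as abundant as those of Bcl2l1 in LPS+Dex and 17.3 times as abundant in LPS. The Bcl2a1 shares and ratios also depend on how shared reads were counted, which is not stated. FPKM is per length of transcript, and says nothing of the amounts of protein.

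**Figure D3:**
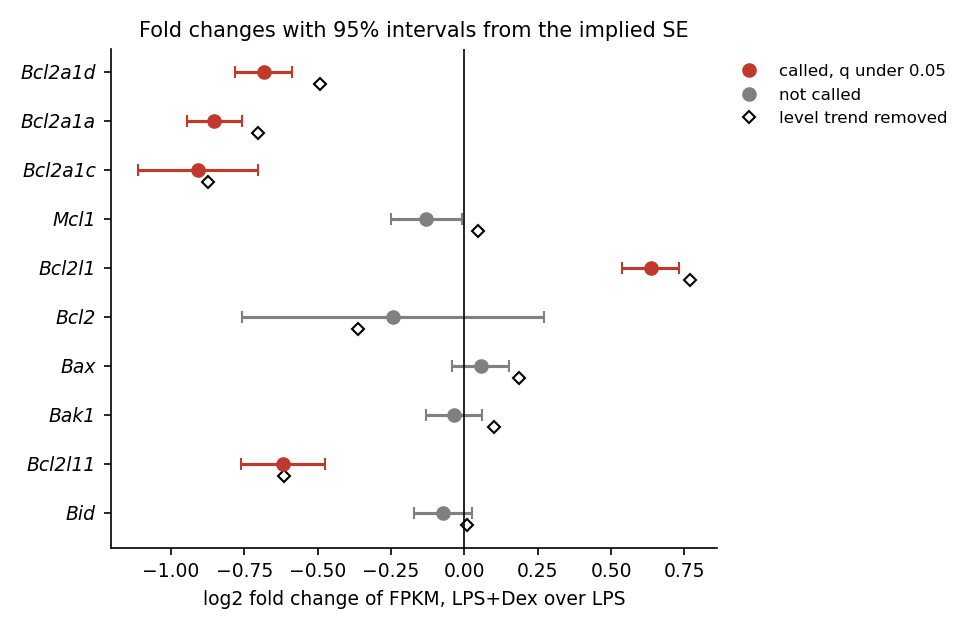
Circles show the log2 fold change of FPKM, LPS+Dex over LPS, of each member, with bars for the 95% interval from the implied SE, and diamonds the same change after the trend on expression level was removed. Bcl2l1 lies at 0.63, the 3 listed Bcl2a1 copies lie between −0.91 and −0.68, and the diamonds of Mcl1, Bak1 and Bid lie on the other side of 0 from their circles.

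Neither effector was called. Bax, which moves to mitochondria on activation (chromosome 7, 52717065 to 52722268), had 90.9 FPKM in LPS+Dex and 87.5 FPKM in LPS. Its log2 fold change was 0.055 with a 95% interval of −0.043 to 0.15, and it was not called in the authors' deposited table (q = 0.403). Bak1, which resides in the mitochondrial membrane (chromosome 17, 27154980 to 27173323), had 96.0 FPKM in LPS+Dex and 98.3 FPKM in LPS. Its log2 fold change was −0.034 with an interval of −0.13 to 0.061 (q = 0.616 in the authors' deposited table). The intervals of both genes lie between 0.914-fold and 1.11-fold. After subtraction of the level trend, Bax stood at log2 0.19 and was called (q = 0.000714, Benjamini-Hochberg over all tested genes), while Bak1 turned to 0.10 and was not (q = 0.0826). Bok, another effector gene, had status NOTEST, with 0.00524 FPKM in LPS+Dex and 0.0114 FPKM in LPS.

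Of the BH3-only members, Bcl2l11 fell and Bid was not called. Bcl2l11 encodes Bim, an activator that binds all the pro-survival proteins (chromosome 2, 127951774 to 127988283). It had 5.99 FPKM in LPS+Dex and 9.20 FPKM in LPS in the authors' deposited table, a log2 fold change of −0.62 (implied SE 0.074), or 0.651-fold with a 95% interval of 0.589 to 0.720. The trend at its level was near 0, and removing it left −0.61. Bcl2l1 was 18.9 times as abundant as Bcl2l11 in LPS+Dex and 7.91 times in LPS. Bid, which caspase-8 cleaves to link death receptors to mitochondria (chromosome 6, 120843137 to 120866838), had 34.2 FPKM in LPS+Dex and 36.02 FPKM in LPS. Its log2 fold change was −0.073 with an interval of −0.17 to 0.025 (q = 0.248 in the authors' deposited table), and 0.0078 with the trend removed.

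**Figure D4:**
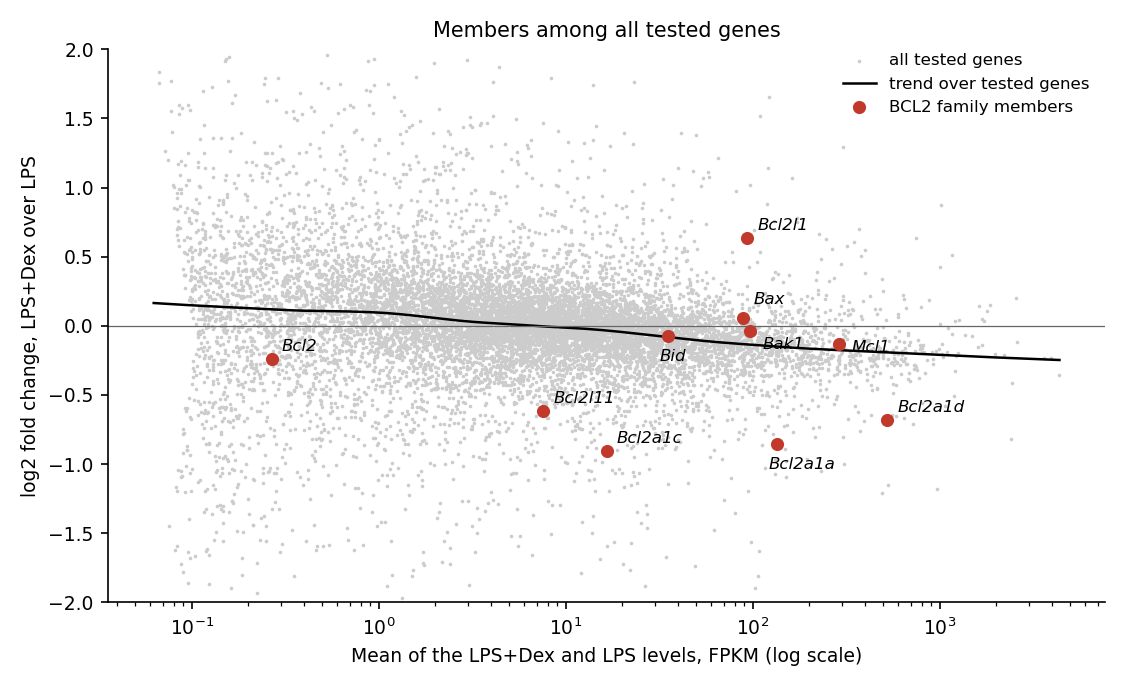
Each grey point is 1 of the tested genes with both values above 0, placed by its mean FPKM (x axis, log scale) and its log2 fold change of LPS+Dex over LPS (y axis, drawn from −2 to 2, with 82 genes outside), the line is the trend over these genes and red points are the members. The trend falls below 0 at high levels, where Mcl1 lies on it, while Bcl2l1 lies above it and the Bcl2a1 copies and Bcl2l11 lie below it.

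The other genes of the family were counted from a list by role. Of 16 such genes, 11 had a test. The authors' deposited table called 2 higher and 3 lower, with a median log2 fold change of 0.034 over the 11. Over all tested genes, 42.9% were called, 17.7% as higher and 25.2% as lower. Besides Bcl2a1b, the lower calls were Bbc3 and Bnip3. Bbc3 encodes Puma, a BH3-only protein induced by p53, and had 1.70 FPKM in LPS+Dex and 2.77 FPKM in LPS (log2 −0.71, implied SE 0.11). Bnip3, which marks mitochondria for removal under low oxygen, had 12.4 FPKM in LPS+Dex and 14.98 FPKM in LPS (log2 −0.28, implied SE 0.060). Its relative Bnip3l went the other way, with 17.3 FPKM in LPS+Dex and 14.5 FPKM in LPS (log2 0.25, implied SE 0.052). Bcl2l12 was also called higher, with 1.60 FPKM in LPS+Dex and 1.12 FPKM in LPS (log2 0.52, implied SE 0.19), and it lost that call once the level trend was subtracted.

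The remaining BH3-only genes were low or not called. Bad, whose product is held inactive by phosphorylation, had 13.3 FPKM in LPS+Dex and 12.3 FPKM in LPS (q = 0.184 in the authors' deposited table). Pmaip1, which encodes Noxa, a partner of Mcl1, had 2.47 FPKM in LPS+Dex and 2.20 FPKM in LPS (q = 0.141). Bik had 0.447 FPKM in LPS+Dex and 0.530 FPKM in LPS (q = 0.612). Bmf had no test, at 0.0563 FPKM in LPS+Dex and 0.0301 FPKM in LPS, and Hrk was listed at 0 in both groups. Of the pro-survival genes, Bcl2l2, which encodes Bcl-w, had 10.7 FPKM in LPS+Dex and 10.5 FPKM in LPS (q = 0.654), and Bcl2l10 was listed at 0 in both groups. Among divergent relatives, Bcl2l13 had 3.56 FPKM in each group (q = 0.982). Bcl2l15 had 0.284 FPKM in LPS+Dex and 0.0455 FPKM in LPS, with a wide error (log2 2.64, implied SE 1.16, q = 0.0515), and Bcl2l14 had no test, at 0.00323 FPKM in LPS+Dex and 0.00719 FPKM in LPS.

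Downstream of Bax and Bak1, cytochrome c joins Apaf1 and caspase-9 in the apoptosome. Of 13 genes for proteins of mitochondrial release and structure, all were tested. The authors' deposited table called 7 lower and none higher, with a median log2 fold change of −0.15. For this list and those that follow, the shares over all tested genes were 42.9% called, 17.7% as higher and 25.2% as lower, with a median of −0.011. After subtraction of the level trend 3 were called, all lower. Apaf1, the scaffold of the apoptosome, fell most, with 15.1 FPKM in LPS+Dex and 21.0 FPKM in LPS (log2 −0.47, implied SE 0.056). Htra2, whose product antagonizes inhibitors of apoptosis, had 36.1 FPKM in LPS+Dex and 37.5 FPKM in LPS and was not called (q = 0.438). Cycs, which encodes cytochrome c, was chosen for display after its values were seen, and had 70.5 FPKM in LPS+Dex and 81.6 FPKM in LPS (log2 −0.21, implied SE 0.048), a call it lost after that subtraction (q = 0.164).

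Of 11 caspase and inhibitor-of-apoptosis genes in the authors' deposited table, 7 were called lower, 2 higher and 2 were not called, with a median log2 fold change of −0.27. The counts were the same with the trend removed. Birc5, which encodes survivin and peaks in dividing cells, had 19.9 FPKM in LPS+Dex and 14.9 FPKM in LPS (log2 0.42, implied SE 0.069). Casp9, named after its values were seen as the other gene called higher, had 4.29 FPKM in LPS+Dex and 3.44 FPKM in LPS (log2 0.32, implied SE 0.067). The inhibitor gene Xiap, shown after its values were seen, had 16.2 FPKM in LPS+Dex and 20.1 FPKM in LPS (log2 −0.31, implied SE 0.048). Birc6 had 12.01 FPKM in LPS+Dex and 11.7 FPKM in LPS and was not called (q = 0.513).

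The death receptor route meets the family at Bid. Of 10 genes for death receptors, their adaptors and necroptosis, 9 were tested. The authors' deposited table called 3 lower and 1 higher and left 5 without a call (median log2 −0.050). Fadd, the adaptor that recruits caspase-8, had 3.04 FPKM in LPS+Dex and 2.52 FPKM in LPS (log2 0.27, implied SE 0.082). Cflar, which encodes the caspase-8 inhibitor FLIP, had 146 FPKM in LPS+Dex and 179.9 FPKM in LPS (log2 −0.30, implied SE 0.074). Fas itself had 38.8 FPKM in LPS+Dex and 37.1 FPKM in LPS and was not called (q = 0.360). These counts depend on the scaling: after subtraction of the level trend Fas and Fadd were the called genes, both higher, and Cflar was not called (q = 0.108).

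Of 21 genes known to act on family members through transcription or protein turnover, 20 were tested. The authors' deposited table called 11 lower and 3 higher and left 6 without a call (median log2 −0.15). With the trend removed, 10 were lower and 3 higher. Stat5a, a cytokine-activated factor that induces Bcl2l1, had 13.1 FPKM in LPS+Dex and 24.4 FPKM in LPS (log2 −0.90, implied SE 0.057). The 4 listed genes of NF-kB subunits are shown after their values were seen. Nfkb1 had 98.5 FPKM in LPS+Dex and 139 FPKM in LPS (log2 −0.50, implied SE 0.052), and Rel had 10.3 FPKM in LPS+Dex and 18.9 FPKM in LPS (log2 −0.88, implied SE 0.055). Rela (log2 −0.036, q = 0.588) and Relb (log2 −0.065, q = 0.316) were not called. Tsc22d3, which encodes the glucocorticoid-induced protein GILZ, had 11.0 FPKM in LPS+Dex and 3.99 FPKM in LPS (log2 1.47, implied SE 0.075). Cebpb had 355 FPKM in LPS+Dex and 326 FPKM in LPS and was not called (q = 0.0532), but was called higher after subtraction of the level trend (log2 0.30). The forkhead genes, whose products induce Bcl2l11, are also shown after their values were seen. Foxo4 was called higher (log2 0.29, implied SE 0.096), a call it lost after that subtraction (q = 0.0513), whereas Foxo1 had log2 0.087 (q = 0.513) and Foxo3 had log2 −0.13 (q = 0.265).

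**Figure D5:**
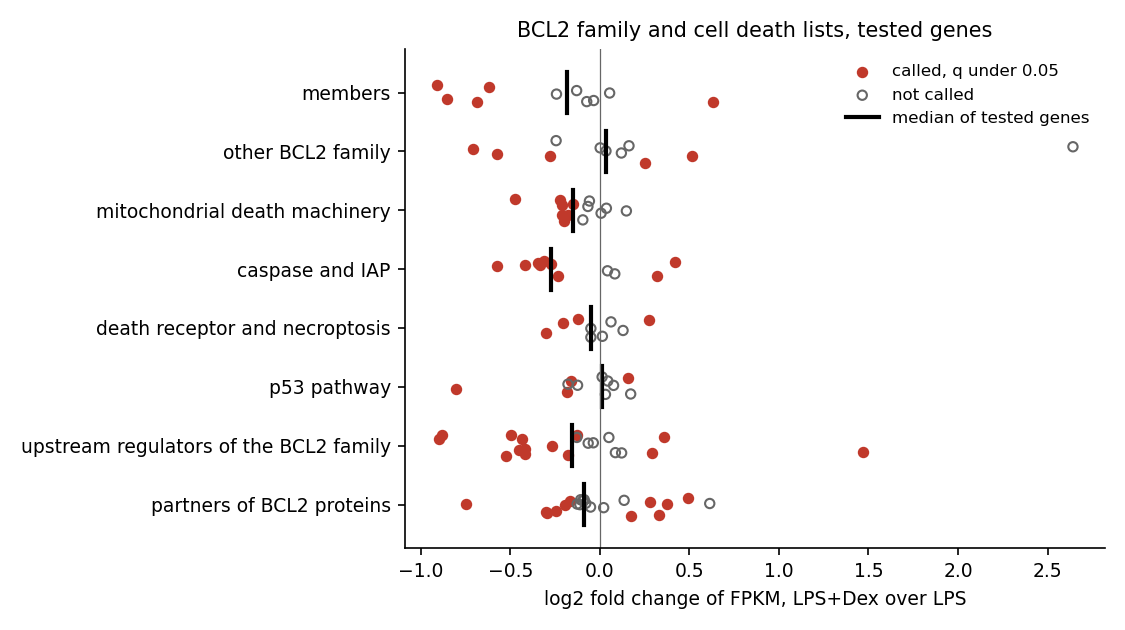
Each point is the log2 fold change of FPKM, LPS+Dex over LPS, of 1 tested gene (x axis), with filled points for genes called at q under 0.05, open points for genes not called and a bar at the median of each list (y axis). The medians lie between −0.27 for caspases and inhibitors of apoptosis and 0.034 for the other BCL2 family genes, and each list has genes on both sides of 0.

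RefSeq promoter windows of GRCm38.p6, from 250 bases before to 50 after a start, were found for all 10 members, Bcl2a1b and Bbc3 and searched on both strands for 6 motifs. These were the glucocorticoid receptor half-site AGAACA, its palindrome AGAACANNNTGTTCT, the STAT motif TTCNNNGAA, the forkhead motif GTAAACA, the AP-1 motif TGACTCA and the NF-kB consensus. The palindrome contains the half-site. Over all 32851 windows, 19.0% held the half-site, 0.00913% the palindrome, 8.30% the STAT motif, 3.65% the forkhead motif, 5.20% the AP-1 motif and 8.46% the NF-kB consensus. No window of a Bcl2a1 copy held any of them, which says only that these letters are not in these windows. For AP-1 this holds for a form narrowed after the first search was seen.

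Among the members there were 2 matches. The second of 3 Bcl2l1 windows held the NF-kB consensus at −242 to −233 relative to its start, which lies within an untranslated exon of another annotated Bcl2l1 transcript. Of the family genes outside the members, only Bcl2a1b and Bbc3 were searched. Bbc3 held 2 overlapping matches to the NF-kB consensus in its first window and the forkhead motif in its second. The first of 2 Bcl2l11 windows held the forkhead motif at −227 to −221 relative to the start. This stretch, at chr2:128125788-128125847 on the plus strand, is printed to show the motif (capitals) in its flanks, and a match is a description of the letters, not of binding.
Bcl2l11: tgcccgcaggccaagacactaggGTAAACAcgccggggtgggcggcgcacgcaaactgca

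Annotation of GRCm38 places other genes over some members. On the opposite strand, Ggnbp1 overlaps Bak1, and Bcl2l13 and the pseudogene Gm17812 overlap Bid. The antisense genes D630008O14Rik and Gm10634 overlap Bcl2 and Bcl2a1d, respectively. On the same strand, Gm45808 overlaps Bax, Gm44260 overlaps Bid, and Gm37053 and Mir3473f overlap Bcl2. Strand cannot separate reads of genes on the same strand. Gm10634, Gm45808 and D630008O14Rik have no row in the table. The libraries were stranded per the labels, but neither the labels nor the table say whether strand was used in counting. Ggnbp1 had 0.114 FPKM in LPS+Dex and 0.0853 FPKM in LPS, far under Bak1. Of 717 windows of Bcl2a1b, 302 also occurred in Gm29094, an overlapping model of that annotation that has no row in the table. So did 117 of 719 windows of Bcl2a1a and 117 of 763 windows of Bcl2a1d, but none of Bcl2a1c.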

How the data were processed

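RNA sequencing of 6 macrophage samples was available as 1 table of the authors' comparison. Its FPKM values, 1 per gene and group, were made by the authors, per the file headers. The test statistic is a score of the authors, per the file headers, whose sign runs against that of the fold change, and the p-value and q-value columns were deposited with it. CASAVA, TopHat 1.4.1, Cufflinks 2.0.2 and build mm9 are named in the submitters' processing notes, without roles. The labels and the table do not state the annotation, how replicates were combined or how libraries were scaled. Groups were taken from sample titles, since the growth protocol reads the same for all samples. FPKM depends on the assumed transcript length and library total. Depth is unknown, and the table holds no value per sample.

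Computed from these were log2(LPS+Dex/LPS), the implied SE, 95% intervals of 1.96 implied SE, and list counts and medians over tested genes. A lowess trend of fold change on mean FPKM was also fitted (span 0.3, statsmodels 0.14.6, Python 3.11.15). The trend removal was checked on simulated data with a straight trend and a small share of changed genes, unlike the real data. That check cannot show whether the real trend is technical. Deposited q values equalled a Benjamini-Hochberg adjustment over the 11755 tested genes to within 1.33e-06. Starts in the table count from 0, since end minus start equalled the RefSeq length for 7152 of 20601 genes matched by symbol and end minus start plus 1 for 451. Printed starts are therefore 1 higher. Coding sequences were aligned with Biopython 1.88.

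The members and lists were chosen with earlier results of these data known. Named genes are all members, the other family genes, and in each list the called gene of at least 1 FPKM that changed most each way and the uncalled gene with the highest mean. One gene that this rule names is not reported here. Others are named as chosen after their values were seen. Marker genes Ly6g and Trac were not analysed here under these symbols. Alternatives were q of 0.01 or 0.1, Bonferroni adjustment, a minimum of 1 FPKM, median centring, trend removal, pseudocounts of 1 and 0.1 FPKM, and leaving out the Bcl2a1 rows. The AP-1 motif was narrowed from a looser form after the first search was seen.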

Additional observations from a re-analysis of the deposited data

How the results depend on the processing

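The directions of Bcl2l1, Bcl2l11 and the 3 listed Bcl2a1 copies, and their calls, were the same under a q of 0.01 or 0.1, Bonferroni adjustment, a minimum of 1 FPKM, median centring and removal of the trend on expression level. With 1 FPKM added to both values, the log2 fold change of Bcl2l11 was −0.54. Removing the trend reversed Mcl1 to 0.046, Bak1 to 0.10 and Bid to 0.0078, none of them called, and brought Bax to a call at 0.19. At a q of 0.1, Mcl1 was called lower. Without the Bcl2a1 rows, 2 of 7 members were called, 1 each way. Bonferroni adjustment left 2424 genes called of all tested, 1 of the mitochondrial machinery, 0 of the death receptor and necroptosis list, 1 of the p53 list, 9 of the upstream regulators and 7 of the partners. With the trend removed, 3 genes of the mitochondrial machinery and 2 of the death receptor list were called. The other counts stayed within 1.5 times their value. The cause of these shifts was not tested.

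No paired analysis was possible because the table holds 1 value per group. Leave-one-out values were not run for the same reason. Depth and spread between samples limit every value here and are unknown. For Bcl2, at under 0.3 FPKM, the implied SE of 0.26 is the widest of the members.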

Other observations

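Among p53 and its targets, a pathway that induces Bbc3, Pmaip1 and Bax, 11 of 12 listed genes were tested. The authors' deposited table called 3 lower and 1 higher and left 7 without a call, with a median log2 fold change of 0.013. The shares over all tested genes were 42.9% called, 17.7% as higher and 25.2% as lower. After subtraction of the level trend the list's median was −0.019, with 1 called higher and 2 lower. Cdkn1a, which encodes the cell cycle inhibitor p21, had 222 FPKM in LPS+Dex and 387 FPKM in LPS (log2 −0.80, implied SE 0.053). Trp53 itself had 16.4 FPKM in LPS+Dex and 14.7 FPKM in LPS (log2 0.16, implied SE 0.065, q = 0.0362). Aen, a nuclease gene induced by p53, had 13.6 FPKM in LPS+Dex and 13.2 FPKM in LPS and was not called (q = 0.598).

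Of 21 genes for partners of BCL2 proteins, all were tested. The authors' deposited table called 6 lower and 5 higher and left 10 without a call, with a median log2 fold change of −0.087. After subtraction of the level trend the balance turned, with 5 higher, 4 lower and a median of 0.051. The genes of the inositol trisphosphate receptors, calcium channels that Bcl-2 and Bcl-xL bind, went different ways. Itpr3 had 2.51 FPKM in LPS+Dex and 1.79 FPKM in LPS (log2 0.49, implied SE 0.062). Itpr2 had 2.33 FPKM in LPS+Dex and 3.92 FPKM in LPS (log2 −0.75, implied SE 0.058). Itpr1, shown after its values were seen, had 5.97 FPKM in LPS+Dex and 6.82 FPKM in LPS (log2 −0.19, implied SE 0.050). Tmbim6, which encodes Bax inhibitor 1, had 308 FPKM in LPS+Dex and 329 FPKM in LPS and was not called (q = 0.214).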
